A study of Homo sapiens with 8 samples.

Results

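The cellular transporters of leucine were followed at the RNA level in 769-P and CAKI-1 cells, which are established human lines labelled as clear cell renal cell carcinoma (RCC). Members were chosen by name, with earlier results of these data known. They are the system L genes SLC7A5, SLC7A8, SLC43A1 and SLC43A2, the heavy chain gene SLC3A2, the sodium-coupled transporter gene SLC6A15 and the mitochondrial carrier gene SLC25A44. Of these 7 genes, 6 were listed in the table of each cell line, among 25431 genes for 769-P and 24190 for CAKI-1. SLC7A8 had no row in either table and was not analysed here. Cells of the BCAA group were given branched-chain amino acids (BCAAs) over 16 hours, with leucine and isoleucine each at 0.38 mM and valine at 0.17 mM, and cells of the no BCAA group were kept without them for that time. Each group had 2 libraries per cell line, 8 in all. 769-P cells were maintained in RPMI and CAKI-1 cells in MEM, both with FBS. The study's methods describe a medium without BCAA for the RCC cells, made from RPMI free of amino acids with dialyzed FBS, but do not name the sequenced samples beside it. The labels do not say whether replicates came from separate cultures. The p-values therefore measure only the spread between these libraries, which may be technical.

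Leucine and the other large neutral amino acids enter many cells through system L, which needs no sodium. SLC7A5 (LAT1) and SLC7A8 (LAT2) are light chains that carry the amino acid and exchange it for another, and each is held at the cell surface by the heavy chain SLC3A2 (CD98, 4F2hc). SLC43A1 (LAT3) and SLC43A2 (LAT4) work without a heavy chain and let the amino acid run down its gradient. SLC6A15 (B0AT2) brings in BCAAs, methionine and proline with sodium, and SLC25A44 takes BCAAs into mitochondria, where they can be broken down. In many cell types a shortage of amino acids raises transcription of SLC7A5 and SLC3A2 through the factor ATF4.

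The libraries held from 30979773 to 64256834 reads on the genes in their table. In 769-P, both BCAA libraries (64256834 and 55829324 reads) were deeper than both no BCAA libraries (39062721 and 40130258), so that depth and condition went together. With the reads of every library thinned to the smallest total, the same number of members was called in each comparison. Of 11 renal and RCC marker genes, 10 were listed in 769-P and 9 in CAKI-1, and 8 averaged 100 normalised reads or more in each. CA9, a marker of clear cell RCC, had no row in either table, and NDUFA4L2, another, was between 0.758 and 2.57 in the 769-P libraries. PAX2 had no row in CAKI-1, and LHX1 was under 100 normalised reads in every library of both lines. The 6 markers of immune, endothelial, red blood and liver cells summed to at most 11.4 normalised reads in any library.

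With BCAA, 4 of the 6 members tested changed in 769-P, SLC25A44 upwards and SLC7A5, SLC3A2 and SLC6A15 downwards. In CAKI-1, 3 of the 6 changed, SLC7A5 and SLC25A44 upwards and SLC6A15 downwards. SLC7A5 thus moved in opposite directions in the 2 lines. A gene was called at an adjusted p of 0.05 in limma's moderated test on log2(value + 1), with Benjamini-Hochberg adjustment over all genes tested and no minimum fold change. By that rule 20.3% of the 22391 genes tested in 769-P were higher and 18.2% lower with BCAA, against 10.8% and 9.05% of the 21347 genes tested in CAKI-1. The median log2 fold change of the 6 members was -1.38 in 769-P, where that of all genes was -0.02, and -0.07 in CAKI-1, where that of all genes was -0.01. The BCAA effect differed between the lines for 3 of the 6 members (SLC7A5, SLC3A2 and SLC6A15), while 21.1% of the 19406 genes tested in both lines differed. Values are the reads of a gene after division by the size factor of the library, called normalised reads here. RNA was taken from whole cultures, so fewer cells expressing a gene and less RNA per cell cannot be told apart.

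**Figure D1:**
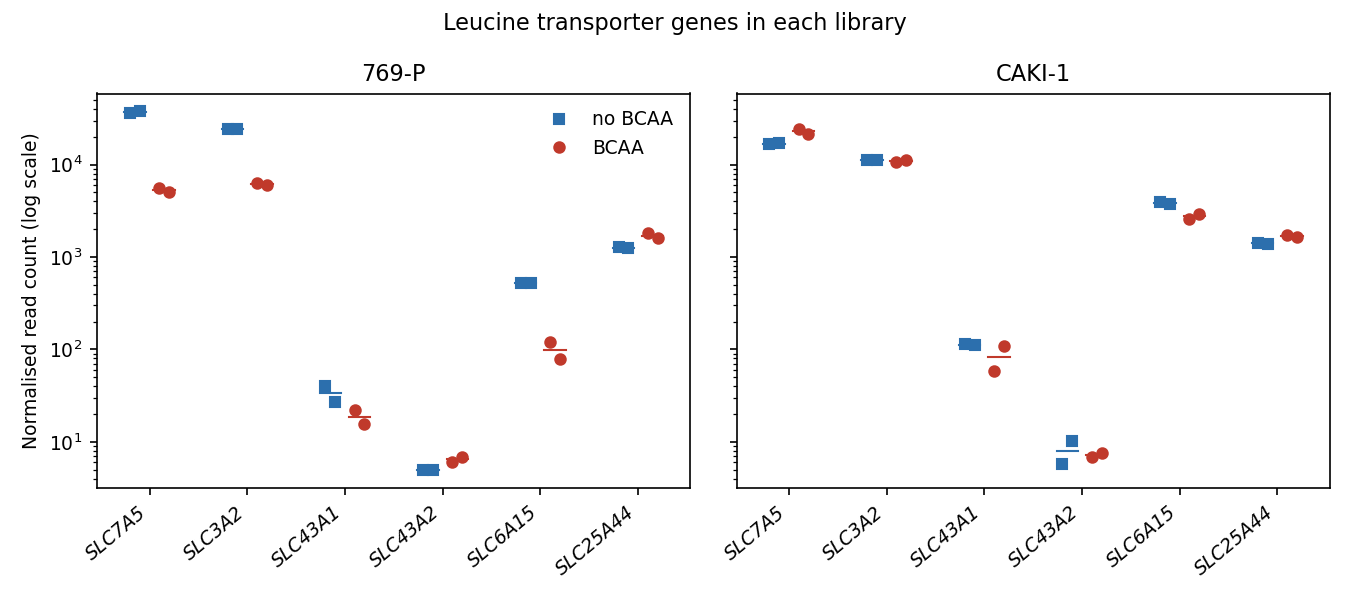
Normalised read count (log axis) of the 6 listed leucine transporter genes in every library of 769-P (left) and CAKI-1 (right), with a point per library (squares without BCAA, circles with BCAA) and a bar at the mean of 2. SLC7A5 in 769-P is at 36409 and 37635 without BCAA and at 5583 and 5074 with it, whereas in CAKI-1 the libraries with BCAA lie above those without.

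SLC7A5 (ENSG00000103257) lies on the minus strand of chromosome 16, between 87830023 and 87869488 in GRCh38, with 11 exons after merging its transcripts. Its promoter is shown because SLC7A5 had the largest BCAA effect of the members in 769-P. The 250 bases before its RefSeq start (GRCh38.p14, minus strand, chr16:87869508-87869757), of which 79.6% are G or C, read as follows, with the E-box in capitals.

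SLC7A5 promoter: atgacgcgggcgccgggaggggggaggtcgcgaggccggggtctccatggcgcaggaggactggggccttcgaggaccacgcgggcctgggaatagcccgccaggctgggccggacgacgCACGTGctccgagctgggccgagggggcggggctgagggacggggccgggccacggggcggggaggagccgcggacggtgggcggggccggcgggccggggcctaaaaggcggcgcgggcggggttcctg

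The E-box, CACGTG on either strand, is bound by several families of transcription factors, and 7.26% of the 35116 RefSeq promoter windows held it. Each window runs from 250 bases before a start to 50 bases after it. The core of the C/EBP-ATF response element, TGATGNAA on either strand, at which ATF4 binds with a C/EBP partner, was in 3.62% of windows. It was not among the letters of the SLC7A5 window.

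In 769-P, SLC7A5 was at 5583 and 5074 normalised reads in the BCAA libraries and at 36409 and 37635 in the no BCAA libraries. Both BCAA libraries were far below both others. The log2 fold change with BCAA was -2.80 (SE 0.05, 95% CI -2.91 to -2.69, limma adjusted p = 9.3e-12), a 6.95-fold lower level and rank 75 from the most lowered of 22391 genes. The size of the adjusted p depended on the processing. Under quantile normalization the log2 fold change was -2.79 (limma adjusted p = 7.9e-05).

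In CAKI-1, SLC7A5 was at 24378 and 21522 normalised reads with BCAA and at 16663 and 17051 without. The groups did not overlap, and the BCAA libraries were the higher ones. The log2 fold change was 0.44 (SE 0.06, 95% CI 0.30 to 0.58, limma adjusted p = 0.0007), or 1.36-fold. When any of the 4 libraries was left out and the spread was taken from the 3 others, limma called none of the 21347 genes in CAKI-1, although between 4084 and 5590 had an unadjusted p under 0.05. With the spread from the 7 libraries left of both lines, SLC7A5 stayed called without each CAKI-1 library (log2 fold change 0.35 to 0.53). That set of fits was added after the values were seen, and it takes part of its spread from 769-P.

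The BCAA effect on SLC7A5 was thus 3.24 lower in 769-P than in CAKI-1 on the log2 scale, a difference of -3.24 (SE 0.09, 95% CI -3.43 to -3.05, limma adjusted p = 1.5e-10). An antisense gene, AC126696.2, overlaps 271 exon bases of SLC7A5 (5.71% of 4745), and whether the counting used strand is not given in the sources used here. AC126696.2 itself had at most 4 reads in a 769-P library and no row in CAKI-1. SLC7A5P1, a pseudogene that could share reads with SLC7A5, had 42.8 and 35.8 normalised reads with BCAA and 39.9 and 33.5 without in CAKI-1, and no row in 769-P. Adding its values to SLC7A5 changed no call.

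SLC3A2 (ENSG00000168003) lies on the plus strand of chromosome 11, between 62856102 and 62888875, with 15 merged exons. RefSeq gives it 3 starts with promoter windows, and one of the windows held the C/EBP-ATF core. The match, in capitals as its reverse complement, begins 38 bases into the transcript (GRCh38.p14, plus strand, chr11:62881719-62881748), and the 30 bases around it are shown beside the SLC7A5 site because both genes fell in 769-P.

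SLC3A2 site: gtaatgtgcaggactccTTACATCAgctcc

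SLC7A5 site: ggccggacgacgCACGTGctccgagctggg

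The SLC7A5 site repeats the E-box above, which begins 130 bases before the start (chr16:87869620-87869649, minus strand). Among the other members, a window of SLC43A1, which was called in neither line, and one of SLC7A8, which was not analysed here, also held the E-box, and no other window of a member held either motif. SLC6A15 was not searched here. A match of letters is a description of the window and does not show that a factor binds there.

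In 769-P, SLC3A2 was at 6346 and 6018 normalised reads with BCAA and at 24145 and 24137 without, so that the BCAA libraries lay far below. The log2 fold change was -1.97 (SE 0.04, 95% CI -2.06 to -1.87, limma adjusted p = 4.6e-11), or 3.91-fold lower. Under quantile normalization it was -1.96 (limma adjusted p = 9.5e-05). In CAKI-1, the values were 10630 and 11152 with BCAA and 11103 and 11279 without. These groups overlapped, and the log2 fold change of -0.04 (95% CI -0.16 to 0.08, limma adjusted p = 0.68) did not pass the test. The interval leaves room for a change of up to 0.16 on the log2 scale, far smaller than that in 769-P. The effects of the 2 lines differed by -1.93 (SE 0.07, limma adjusted p = 8.6e-10).

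**Figure D2:**
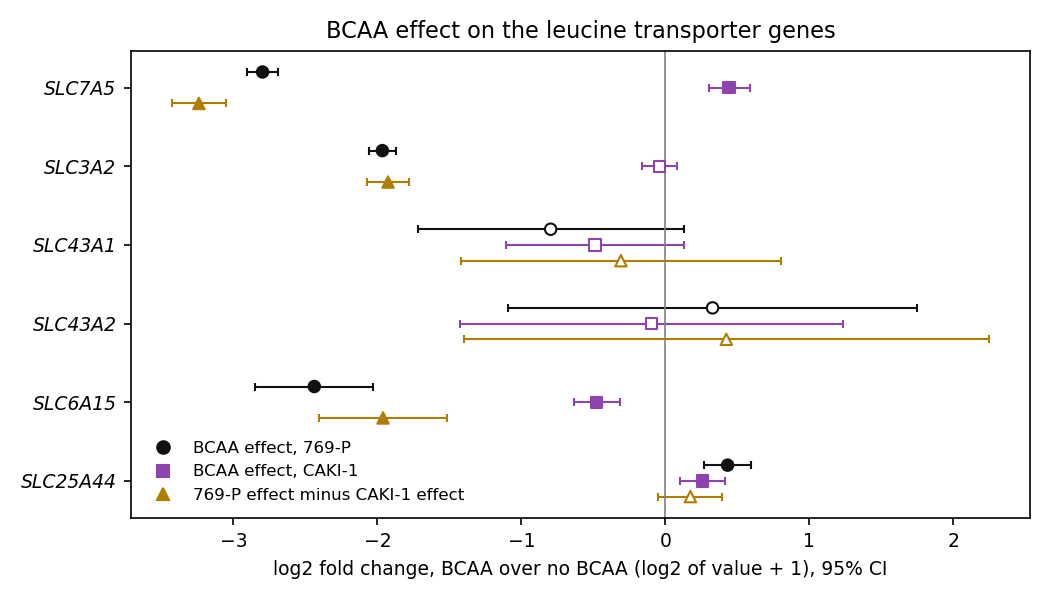
Log2 fold change with BCAA (log2 of value + 1) with its 95% confidence interval for each listed member in 769-P (circles), in CAKI-1 (squares) and as the difference of the 2 effects (triangles); filled symbols had an adjusted p under 0.05. SLC7A5 is at -2.80 in 769-P and 0.44 in CAKI-1, and the intervals of SLC43A1 and SLC43A2 all include 0.

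The light and heavy chain transcripts did not fall in proportion in 769-P. Per kilobase of merged exon, the ratio of SLC7A5 to SLC3A2 was 0.960 and 0.920 in the BCAA libraries and 1.65 and 1.70 in the no BCAA libraries. In CAKI-1 the same ratio was 2.50 and 2.11 with BCAA and 1.64 and 1.65 without. The BCAA libraries were therefore the lower ones in 769-P and the higher ones in CAKI-1, and the no BCAA libraries of both lines lay between 1.64 and 1.70. The means were 0.940 ± 0.028 against 1.67 ± 0.040 in 769-P and 2.30 ± 0.28 against 1.64 ± 0.0084 in CAKI-1 (SD, n = 2). With 2 libraries against 2, a two-sided exact permutation test gave p = 0.333 in each line, the smallest p this design allows.

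Reads scaled to the library's reads on listed genes (RPM) set the lines side by side, although their tables were normalised separately and the lines were not tested against each other. SLC7A5 took 115 and 106 RPM in 769-P with BCAA and 750.4 and 767 without. In CAKI-1 it took 619 and 549.7 with BCAA and 421 and 428 without. The 769-P cells thus had the highest SLC7A5 share of the 4 groups without BCAA and the lowest with it. SLC3A2 ranged over the 8 libraries from 126 RPM in 769-P with BCAA to 498 in 769-P without, and stayed between 269.98 and 285 in CAKI-1.

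**Figure D3:**
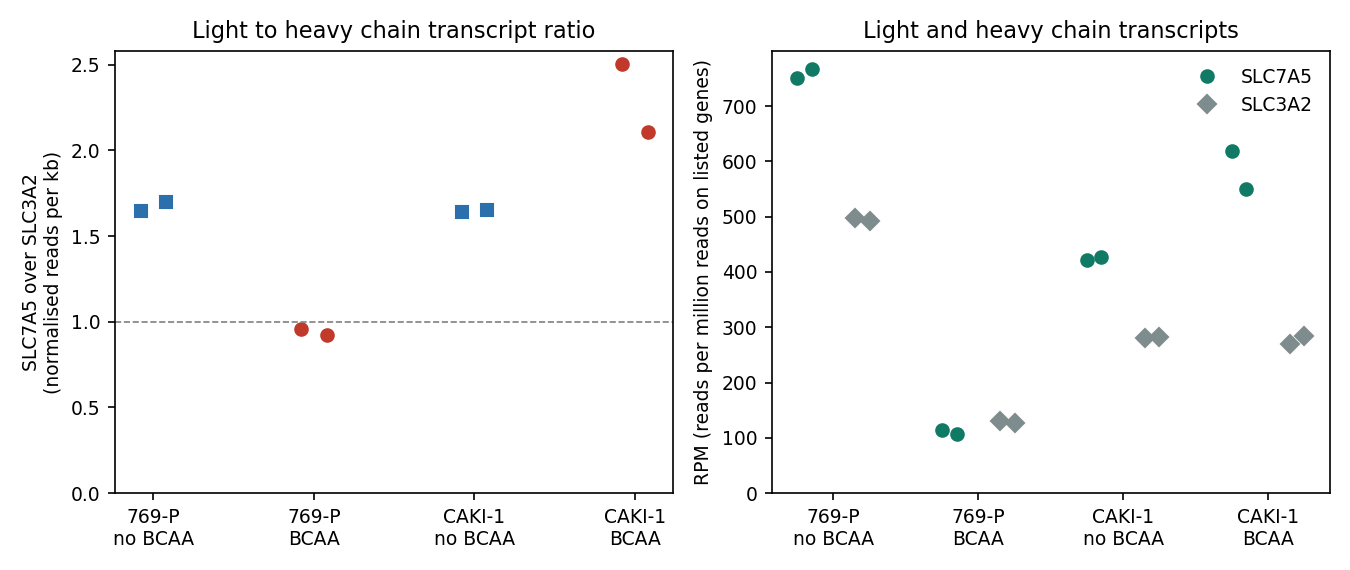
Ratio of SLC7A5 to SLC3A2 in normalised reads per kb of merged exon (left, dashed line at 1) and RPM of each gene (right, circles SLC7A5, diamonds SLC3A2) in every library. The ratio is 0.960 and 0.920 in 769-P with BCAA and at least 1.64 in the other 6 libraries.

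SLC43A1 (ENSG00000149150), the gene of the uniporter LAT3, lies on the minus strand of chromosome 11, between 57484534 and 57515786. In 769-P it was at 22.0 and 15.4 normalised reads with BCAA and 39.7 and 26.9 without. The BCAA libraries were the lower ones, but these values rest on 18 to 32 reads per library. The log2 fold change of -0.80 (95% CI -1.72 to 0.13, limma adjusted p = 0.17) did not pass the test. In CAKI-1 it was at 58.4 and 109 with BCAA and 114 and 111 without. BCAA replicate 1 stood apart from the 3 other libraries, and the log2 fold change of -0.49 (95% CI -1.11 to 0.13, limma adjusted p = 0.27) did not pass the test either. Without that library it was -0.04.

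SLC43A2 (ENSG00000167703), the gene of the uniporter LAT4, lies on the minus strand of chromosome 17, between 1569267 and 1628886. It had between 4 and 9 reads in every library of both lines, or 4.89 to 10.3 normalised reads. The log2 fold changes of 0.33 in 769-P (95% CI -1.09 to 1.75, limma adjusted p = 0.74) and -0.10 in CAKI-1 (95% CI -1.43 to 1.24, limma adjusted p = 0.94) had intervals more than 2 log2 units wide, so a change of 2-fold in either direction was not detectable at this depth. In 769-P the sign turned, to -0.81, when the reads were thinned to equal depth.

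SLC6A15 (ENSG00000072041), the gene of the sodium-coupled BCAA transporter B0AT2, lies on the minus strand of chromosome 12, between 84859488 and 84913615, with 15 merged exons. In 769-P it was at 119 and 77.8 normalised reads with BCAA and at 528 and 524.6 without. The BCAA libraries were well below the others, and their 157 and 91 reads differed more than the 425 and 429 reads without BCAA. The log2 fold change was -2.44 (SE 0.19, 95% CI -2.85 to -2.03, limma adjusted p = 6.7e-07), or 5.42-fold lower.

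In CAKI-1, SLC6A15 was at 2590 and 2932 normalised reads with BCAA and at 3959 and 3719 without. The groups did not overlap, and the BCAA libraries were again the lower ones. Its log2 fold change there was -0.48 (SE 0.07, 95% CI -0.64 to -0.32, limma adjusted p = 0.0009). This call depended on which libraries were included. With the spread from both lines it was lost without BCAA replicate 1 (adjusted p = 0.18), without no BCAA replicate 1 (0.14) and without no BCAA replicate 2 (0.08), all in limma. SLC6A15 fell in both lines, and by more in 769-P, with a difference of -1.96 (SE 0.20, limma adjusted p = 1.7e-05).

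SLC25A44 (ENSG00000160785), the gene of the mitochondrial BCAA carrier, lies on the plus strand of chromosome 1, between 156193932 and 156212796, with 4 merged exons. In 769-P it was at 1809 and 1598 normalised reads with BCAA and at 1276 and 1244 without. In CAKI-1 it was at 1724 and 1647 with BCAA and at 1435 and 1382 without. In each line both BCAA libraries were above both others, opposite to SLC6A15. With BCAA the log2 fold change was 0.43 in 769-P (SE 0.07, limma adjusted p = 0.00049) and 0.26 in CAKI-1 (SE 0.07, limma adjusted p = 0.025), which is 1.35-fold and 1.20-fold. The 2 effects were not shown to differ (difference 0.17, 95% CI -0.05 to 0.40, limma adjusted p = 0.27). In CAKI-1 the call was lost under quantile normalization (limma adjusted p = 0.071), and with the spread from both lines it was lost without BCAA replicate 1 (0.10) and without no BCAA replicate 2 (0.11). In 769-P it was lost without BCAA replicate 1 (0.061) and without either no BCAA library (0.12 each) when the spread came from the 3 libraries left, and it was kept in all 4 cases with the spread from both lines.

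Levels of different genes were compared per kilobase of merged exon within a line. In 769-P with BCAA, SLC3A2 was at 1194 ± 45 normalised reads per kb and SLC7A5 at 1123 ± 76 (SD, n = 2), and their libraries overlapped. SLC25A44 followed at 234 ± 20, then SLC6A15 at 11.2 ± 3.3, SLC43A1 at 5.29 ± 1.3 and SLC43A2 at 0.608 ± 0.052. Without BCAA, SLC7A5 led at 7802 ± 183, above SLC3A2 at 4662 ± 1.2, and the order below was unchanged. In CAKI-1, SLC7A5 led in both conditions, at 4837 ± 426 with BCAA and 3553 ± 58 without, followed by SLC3A2 at 2103 ± 71 and 2161 ± 24. SLC6A15 came next there, at 314 ± 28 and 437 ± 19, above SLC25A44 at 231 ± 7.5 and 193 ± 5.1. Apart from SLC3A2 and SLC7A5 in 769-P with BCAA, the libraries of no 2 neighbours in these orders overlapped. SLC6A15, which was 20.8-fold below SLC25A44 in 769-P with BCAA, was thus 1.36-fold above it in CAKI-1 with BCAA. The 2 SLC43A genes were the lowest in every group.

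Further amino acid transporter and BCAA genes were taken from fixed lists of 49 genes. In 769-P, 40 were tested, of which 9 were higher and 14 lower with BCAA. In CAKI-1, 41 were tested, of which 9 were higher and 2 lower. The effect differed between lines for 17 of the 39 tested in both. Over all genes tested, 20.3% were higher and 18.2% lower in 769-P, and 10.8% and 9.05% in CAKI-1. The effect differed between lines for 21.1% of all genes. The counts per list that follow are to be read beside these shares, and no list was tested as a set.

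The other light chains are amino acid carriers that pair with SLC3A2 or SLC3A1, and SLC3A1 is a further heavy chain. Among these light and heavy chains, 1 of 5 tested was higher and 2 lower in 769-P, and 1 of 5 was higher and 1 lower in CAKI-1. SLC7A7, a light chain of SLC3A2 that moves cationic and neutral amino acids, fell in both lines. It was at 145 and 133 normalised reads with BCAA and 200 and 265 without in 769-P (log2 fold change -0.72, limma adjusted p = 0.006). In CAKI-1 it was at 253 and 250 with BCAA and 343 and 404 without (log2 fold change -0.56, limma adjusted p = 0.011), and the libraries of the groups did not overlap in either line. SLC7A6, another light chain of this kind, rose in CAKI-1, from 685 and 696 normalised reads to 994 and 934 (log2 fold change 0.48, limma adjusted p = 0.0023). In 769-P it had a log2 fold change of 0.03 (limma adjusted p = 0.83), and the difference of -0.45 between the lines passed the test (limma adjusted p = 0.021). SLC7A11, the cystine and glutamate exchanger that also sits on SLC3A2, was chosen after its values were seen. It was at 3514 and 3255 normalised reads with BCAA and 15113 and 15225 without in 769-P, a log2 fold change of -2.17 (SE 0.05). In CAKI-1 it was at 1794 and 1419 with BCAA and 1504 and 1925 without, which overlapped (log2 fold change -0.09, limma adjusted p = 0.67), and the difference between the lines was -2.07 (limma adjusted p = 8.2e-07).

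Of the other neutral amino acid transporters, 1 of 10 tested was higher and 5 lower in 769-P, and 1 of 11 was higher and 1 lower in CAKI-1. SLC1A4 (ASCT1), a sodium-dependent exchanger of alanine, serine and cysteine, had the largest fall of these lists in 769-P. It was at 140 and 156 normalised reads with BCAA and 1317 and 1441 without, so that the groups lay far apart (log2 fold change -3.21, SE 0.11, limma adjusted p = 7.5e-10). In CAKI-1 it was at 1704 and 1646 with BCAA and 1630 and 1615 without (log2 fold change 0.05, limma adjusted p = 0.71), and the difference between the lines was -3.26 (limma adjusted p = 1.4e-09). SLC6A9, a glycine transporter, was also lower in both lines by the test. In 769-P, however, it had only 0 and 1 reads with BCAA and 3 and 13 without, so the size of that fall is uncertain. In CAKI-1 it was at 426 and 428 normalised reads with BCAA and 513 and 558 without (log2 fold change -0.33, limma adjusted p = 0.048).

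Both cationic transporters tested changed in 769-P, 1 upwards and 1 downwards, and 1 of them rose in CAKI-1. SLC7A2, which carries arginine and lysine, had the largest rise among the called genes of these lists in 769-P. It was at 67.5 and 91.5 normalised reads with BCAA against 34.8 and 34.2 without (log2 fold change 1.16, SE 0.29, limma adjusted p = 0.0075). Of 6 lysosomal transporters tested, 1 was higher and 2 lower in 769-P, and 1 was higher and none lower in CAKI-1. Of 8 mitochondrial amino acid carriers other than SLC25A44, 2 were higher and 2 lower in 769-P, and 4 were higher and none lower in CAKI-1.

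BCAAs are transaminated, by BCAT1 in the cytosol or BCAT2 in mitochondria, and their keto acids are then oxidised by the mitochondrial BCKDH complex. Of the 8 genes of these steps, 3 were higher and 2 lower in 769-P, and 1 was higher and none lower in CAKI-1. The 2 lower genes in 769-P were BCAT1 and BCAT2. There BCAT1 was at 544 and 546 normalised reads with BCAA and 3155 and 3362 without. Its log2 fold change was -2.58 (SE 0.07, limma adjusted p = 1.5e-10), and that of BCAT2 was -0.72 (limma adjusted p = 1e-05). Neither was called in CAKI-1 (0.11 and 0.17, limma adjusted p = 0.22 for each). Both effects differed between the lines, by -2.69 and -0.90 (limma adjusted p = 2.1e-10 and 0.00017). BCKDHB, a subunit of BCKDH, was at 1563 and 1550 normalised reads with BCAA and 919 and 1154 without in 769-P (log2 fold change 0.60, limma adjusted p = 0.00031). In CAKI-1 its log2 fold change was -0.19 (limma adjusted p = 0.13), and the difference of 0.79 between the lines passed the test (limma adjusted p = 0.00093). PPM1K, the phosphatase that activates BCKDH, was at 431 and 368 with BCAA and 244 and 241 without in CAKI-1 (log2 fold change 0.71, SE 0.13, limma adjusted p = 0.0026). In 769-P, PPM1K had a log2 fold change of 0.28 (limma adjusted p = 0.51), and the lines were not shown to differ (limma adjusted p = 0.45). SLC43A3, the relative of the LAT3 and LAT4 genes, had 0 and 1 reads with BCAA and 4 and 4 without in 769-P, and at least 1387 reads in every CAKI-1 library. Its log2 fold change passed the test in neither line (limma adjusted p = 0.068 and 0.45). The difference between the lines, -2.25 (SE 0.43, limma adjusted p = 0.002), did pass, but on the 769-P side it rests on 0 to 4 reads per library.

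**Figure D4:**
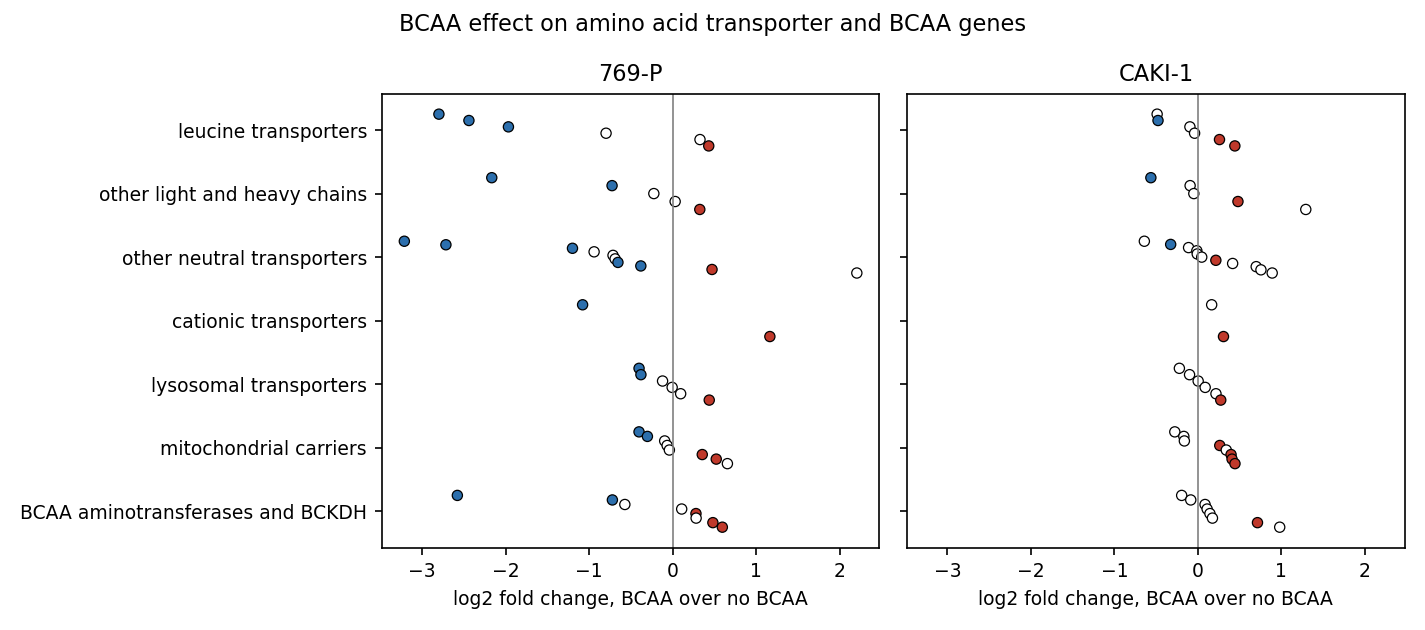
Log2 fold change with BCAA of every gene tested in the leucine transporter list and 6 further lists, in 769-P (left) and CAKI-1 (right), with red for called higher, blue for called lower and white for not called. In 769-P blue points reach -3.21 (SLC1A4), and in CAKI-1 no called gene is beyond 0.71 (PPM1K) upwards or -0.56 (SLC7A7) downwards.

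Genes with the pattern most like that of SLC7A5 were sought among the 10881 genes that averaged 100 normalised reads or more in both tables. The measure was the root mean square difference of log2(value + 1), centred within each line, over the 8 libraries, which share a library and its depth between genes. The nearest were AMZ1, a metallopeptidase gene (0.14), BCAT1, the cytosolic BCAA aminotransferase (0.15), PHGDH, which begins serine synthesis (0.17), EDN2, which encodes endothelin 2 (0.20), and SLC1A4 (0.22). Their log2 differences with BCAA ranged from -3.29 (EDN2) to -2.58 (BCAT1) in 769-P and from 0.00 (PHGDH) to 0.62 (EDN2) in CAKI-1. SLC3A2 was number 19 in this order, at 0.35, and its Pearson correlation with SLC7A5 over the same centred values was 0.98. Unlike a correlation, the measure used for the order also counts the size of a change. The genes nearest to SLC3A2 were ZEB2, a repressor of epithelial genes (0.04), PSAT1, which acts after PHGDH in serine synthesis (0.04), PTPDC1 (0.07), IRS2, an adaptor of the insulin receptor (0.08), and PROSER2 (0.09). Their log2 differences were between -2.17 (IRS2) and -1.79 (PTPDC1) in 769-P and between -0.10 (IRS2) and 0.10 (PROSER2) in CAKI-1. SLC7A5 was number 237 in the order of likeness to SLC3A2.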

How the data were processed

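Total RNA of 8 samples labelled by cell line and treatment was sequenced. The submitters' processing notes name Trim Galore, TopHat2 2.1.0, SAMtools 1.3.1, HTSeq 0.6.0, DESeq, DESeq2 and hg38, without roles. For each cell line the authors deposited 1 table whose values are a signal, the reads of a gene after division by the size factor of the library (0.777 to 1.32, the median-of-ratios factors of that table). All values (100%) were whole multiples of 1 read, to within 0.001 reads, so reads were recovered. The lowest gene total in either table was 2 reads over 4 libraries.

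Genes were matched by Ensembl identifier to GENCODE 29 (GRCh38), and promoter windows come from RefSeq (GRCh38.p14), in which 6 of the 7 members have an entry. limma 3.58.1 (R 4.3.3, lmFit and eBayes with trend) was run on log2(value + 1) for genes with a mean of at least 1, within each cell line and without a replicate block. The difference between lines was the interaction over the 8 libraries. Replicates differed by more than sampling noise (chi-square per degree of freedom 3.26 to 11.9). The test was tried on simulated data. On the recovered reads, edgeR 4.0.16 called 4874 genes higher and 3920 lower in 769-P and 2237 and 2160 in CAKI-1, and DESeq2 1.42.0 called 4030 and 3507, and 2095 and 1695.

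Other pseudocounts, filters, scalings, depths, thresholds and left-out libraries were tried. The 95% confidence intervals come from limma's spread between libraries. The members and lists were chosen with earlier results of these data known. Named from the further lists were the 2 largest rises and the 2 largest falls among called genes in each line, and the 5 genes most like SLC7A5 and SLC3A2. SLC7A11, BCAT1 and BCAT2 were added after their values were seen, as was the set of fits that leave out a library and take the spread from both lines.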

Additional observations from a re-analysis of the deposited data

Results flagged for a closer look

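The BCAA effect differed between the cell lines for 3 leucine transporter genes, by the interaction term of limma over the 8 libraries. The difference, 769-P minus CAKI-1 on the log2 scale, was -3.24 for SLC7A5, -1.93 for SLC3A2 and -1.96 for SLC6A15. For SLC7A5 the 2 effects had opposite signs, with the BCAA libraries below the others in 2 of 2 libraries in 769-P and above them in 2 of 2 in CAKI-1. Leaving out each of the 8 libraries in turn gave differences from -3.33 to -3.15 for SLC7A5, from -1.96 to -1.89 for SLC3A2 and from -2.26 to -1.66 for SLC6A15, all called. Depth went with condition in 769-P, and the 3 differences were also called in the fit on reads thinned to equal depth. The lines were maintained in different media. The part of the medium in the differences cannot be told apart from that of the line, and was not tested.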

How the results depend on the processing

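No member effect that was called changed sign under any alternative, and edgeR, DESeq2 and limma on thinned reads each called 4 members in 769-P, 3 in CAKI-1 and 3 for the difference. A threshold of at least 2-fold as well removed SLC25A44 in 769-P (log2 fold change 0.433) and SLC7A5 (0.442), SLC6A15 (-0.478) and SLC25A44 (0.258) in CAKI-1. That left 0 members called by limma in CAKI-1, where 3 are called without the fold threshold, and 7, 0 and 7 genes of the further lists in 769-P, CAKI-1 and the difference. Quantile normalization gave 0.217 for SLC25A44 and 7 called genes of the further lists in CAKI-1.

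Without a library, 769-P effects ranged from 0.343 to 0.522 for SLC25A44 and from -2.742 to -2.135 for SLC6A15, with 2 to 4 members and 6 to 11 genes of the further lists called. The 2 members lost without either no BCAA library were SLC6A15 (adjusted p = 0.066 and 0.064) and SLC25A44. In CAKI-1 the effects ranged from 0.353 to 0.532 for SLC7A5, from -0.567 to -0.388 for SLC6A15 and from 0.225 to 0.292 for SLC25A44, with 0 members and 0 genes of the further lists called by limma in each fit, while 3 or 4 members had an unadjusted p under 0.05. These fits leave 3 libraries, and the lone sample is assumed to vary like the others. With the spread from both lines, 4 members and 19 to 23 listed genes stayed called in 769-P, and 1 to 3 members and 6 to 8 listed genes in CAKI-1. There SLC6A15 was lost at -0.388 without BCAA replicate 1, at -0.432 without no BCAA replicate 1 and at -0.523 without no BCAA replicate 2, and SLC25A44 was lost at 0.225 without BCAA replicate 1 and at 0.231 without no BCAA replicate 2.

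Libraries with the same replicate number showed no strong shared deviation (correlation of same-number deviations -0.088 in 769-P and 0.061 in CAKI-1). Whether they were paired by design is not given in the labels. With the replicate block, 4 members were called in 769-P, 3 in CAKI-1 and 3 for the difference, with 23, 9 and 17 genes of the further lists, and SLC25A44 in CAKI-1 had an adjusted p of 0.039. In 769-P the block gave limma adjusted p-values as small as 6.4e-275 for SLC3A2 and 9.5e-48 for SLC6A15. Values of that size cannot come from the spread of 4 libraries, so the 769-P count with the block is no check of the calls. The cause of the changes between these alternatives was not tested, other than the fewer libraries. With 2 libraries per group, small effects on low genes such as SLC43A1 and SLC43A2 are not resolved.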
